A study of Mus musculus with 16 samples.

Results

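The data described here set the lung transcriptomes of bleomycin-treated IL-31RA knockout mice (KO-Bleo) against those of saline-treated mice of the same genotype (KO-Sal). They were taken by genotype and treatment from the labels and comprise 8 of the 16 libraries of the series, 4 in each group, with values for 16380 genes. Both groups are C57BL/6 mice that lack exons 4 to 6 of Il31ra in every cell, a stretch that encodes part of the cytokine-binding region, so every comparison between them is made without an intact IL-31 receptor. Treated mice had daily intradermal injections of bleomycin, 6 U per kg, on 5 days of each week over 4 weeks. KO-Sal mice received the saline vehicle on the same days, and whole lungs were taken on day 28. Mice of the study were 10 to 18 weeks old. The labels leave out whether each library is a separate mouse and what its sex, litter or sequencing run was, so the p-values measure the spread between libraries, which may be technical. The other 8 libraries, from wildtype C57BL/6 littermates given the same agents (WT-Bleo and WT-Sal), enter only where a change in knockout lungs is tested against that in wildtype lungs.

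Bleomycin cuts DNA strands, and cells that carry such breaks switch on the p53 response, which can halt division or lead to death. In the lung the drug injures the alveolar lining and the capillaries beneath it, blood monocytes enter and become macrophages, alveolar type 2 cells pass through a transitional keratin-rich state, and fibroblasts lay down collagen. IL-31 is a cytokine of type 2 immunity that signals through a pair of chains, IL-31RA and the oncostatin M receptor OSMR. Repeated injection under or into the skin gives a slow injury of the lung that is used as a model of pulmonary fibrosis.

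Values are taken as RPKM, read counts scaled to transcript length and to the size of the library. They are followed by the log2 fold change of KO-Bleo over KO-Sal on the log2(RPKM + 1) scale with its standard error. A gene is said to have risen or fallen where the limma test gave a Benjamini-Hochberg adjusted p under 0.05 over all 16380 genes. Adding 1 makes the fold changes of genes below about 1 RPKM small. The 4 KO-Sal libraries held 15538872 to 17740863 reads. KO-Bleo 13, 14 and 16 held 18711637 to 21810640 and KO-Bleo 15 held 1234594, and in the last 1208 genes were listed at 0 against 2 to 11 in the other 3. Markers of lung tissue were high in all 8 libraries, with Sftpc, the surfactant protein of type 2 cells, at 13327 RPKM or more. A mean log2 level over 19 adipocyte genes stood at 5.09 in KO-Sal 10 and at 3.07 to 3.10 in the other saline libraries, and that over 7 skeletal muscle genes at 3.22 in KO-Sal 9 and 0.95 to 1.19 in the others. Counts of called genes are therefore also given without KO-Sal 10 and KO-Bleo 15 for all genes and for some of the lists. The counts of other lists may move as well.

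Il31ra itself was almost silent. It was at 0.0461, 0.0320, 0.0351 and 0.0480 RPKM in KO-Sal 9 to 12 and 0.0432, 0.0874, 0.441 and 0.112 RPKM in KO-Bleo 13 to 16, or 2 to 9 reads in each library. The level in replicate 15 rests on 2 reads, the groups overlapped, and the change did not pass the test (0.16 ± 0.10 (SE), adjusted p = 0.27). Values per gene do not separate the deleted exons from the rest. Osmr, the partner chain that also serves oncostatin M, was at 20.2, 23.8, 19.7 and 21.3 RPKM in KO-Sal 9 to 12 and 32.9, 29.7, 36.2 and 39.7 RPKM in KO-Bleo 13 to 16. Every KO-Bleo library lay above every KO-Sal library, and Osmr rose (0.67 ± 0.09 (SE), adjusted p = 0.00082).

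Bleomycin changed 3864 genes in knockout lungs, 23.6% of those listed, with 2167 higher (13.2%) and 1697 lower (10.4%). These shares are the background for every list below. The median change over all genes was -0.01. Most calls were small, with a median absolute log2 change of 0.44, and 259 genes rose and 72 fell by at least 1 on the log2 scale. The groups did not overlap for 4595 genes (28.1%). The thresholds of the study, an unadjusted p under 0.05 and a change of at least 1.5-fold, were applied here to the limma estimates. By them 1220 genes passed (7.45%). Adding 1 lowers the fold changes of genes at low levels, so counts by these thresholds, here and below, are not those of the study's own analysis. With KO-Sal 10 and KO-Bleo 15 left out together 4099 genes passed, 2158 higher and 1941 lower. Leaving out 1 library at a time gave 2698 (without KO-Sal 9) to 4073 (without KO-Bleo 15), and the number called lower dropped from 1697 to 1052 without KO-Sal 9 and to 1105 without KO-Bleo 13.

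The largest increases came from an airway secretory gene, chitinase-like and resistin-like proteins of type 2 immunity, and genes of phagocytes. Clca1, a secreted product of goblet cells that shapes mucus, was at 0.941, 0.700, 0.263 and 3.58 RPKM in KO-Sal 9 to 12 and 190.2, 114, 124 and 67.01 RPKM in KO-Bleo 13 to 16. KO-Sal 12 was the highest saline library, and all 4 were still far below the bleomycin libraries (5.81 ± 0.43 (SE), adjusted p = 8.3e-05). Chil4, a chitinase-like protein of mouse airways, was at 0.149, 0.194, 0.128 and 0.583 RPKM in KO-Sal 9 to 12 and 102, 28.3, 34.9 and 10.7 RPKM in KO-Bleo 13 to 16 (4.74 ± 0.56 (SE), adjusted p = 0.00069). Its reads could be shared with Chil3, a near-identical neighbour, and its call was lost with limma-voom on whole reads (7.02, adjusted p = 0.12). Spp1, which encodes osteopontin, was at 41.1, 25.5, 48.5 and 24.05 RPKM in KO-Sal 9 to 12 and 1264, 642, 784 and 994 RPKM in KO-Bleo 13 to 16 (4.70 ± 0.26 (SE), adjusted p = 6.9e-06). Retnla, a resistin-like protein made by macrophages and epithelium under IL-4 and IL-13, was at 64.6, 68.4, 36.4 and 87.997 RPKM in KO-Sal 9 to 12 and 1465, 706, 1290.4 and 990.3 RPKM in KO-Bleo 13 to 16 (4.10 ± 0.29 (SE), adjusted p = 3.4e-05). The lowest treated library was at 642 RPKM for Spp1 and 706 RPKM for Retnla, far above the saline range.

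Mmp12, the macrophage elastase, was at 1.65, 0.943, 4.25 and 1.10 RPKM in KO-Sal 9 to 12 and 37.6, 37.05, 68.8 and 38.2 RPKM in KO-Bleo 13 to 16 (4.03 ± 0.32 (SE), adjusted p = 6.3e-05). Saa3, an acute phase protein with close relatives in the same cluster, was at 1.91, 2.43, 2.18 and 1.66 RPKM in KO-Sal 9 to 12 and 47.7, 23.6, 30.5 and 82.6 RPKM in KO-Bleo 13 to 16 (3.80 ± 0.32 (SE), adjusted p = 9.3e-05). The other 6 of the 12 largest increases were Gpnmb (3.16), Timp1 (3.14), Trem2 (3.12), Sprr1a (3.08), Wfdc17 (2.98) and Ccl8 (2.88), and each of these rose under all 16 alternative fits and by the study's thresholds.

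**Figure D1:**
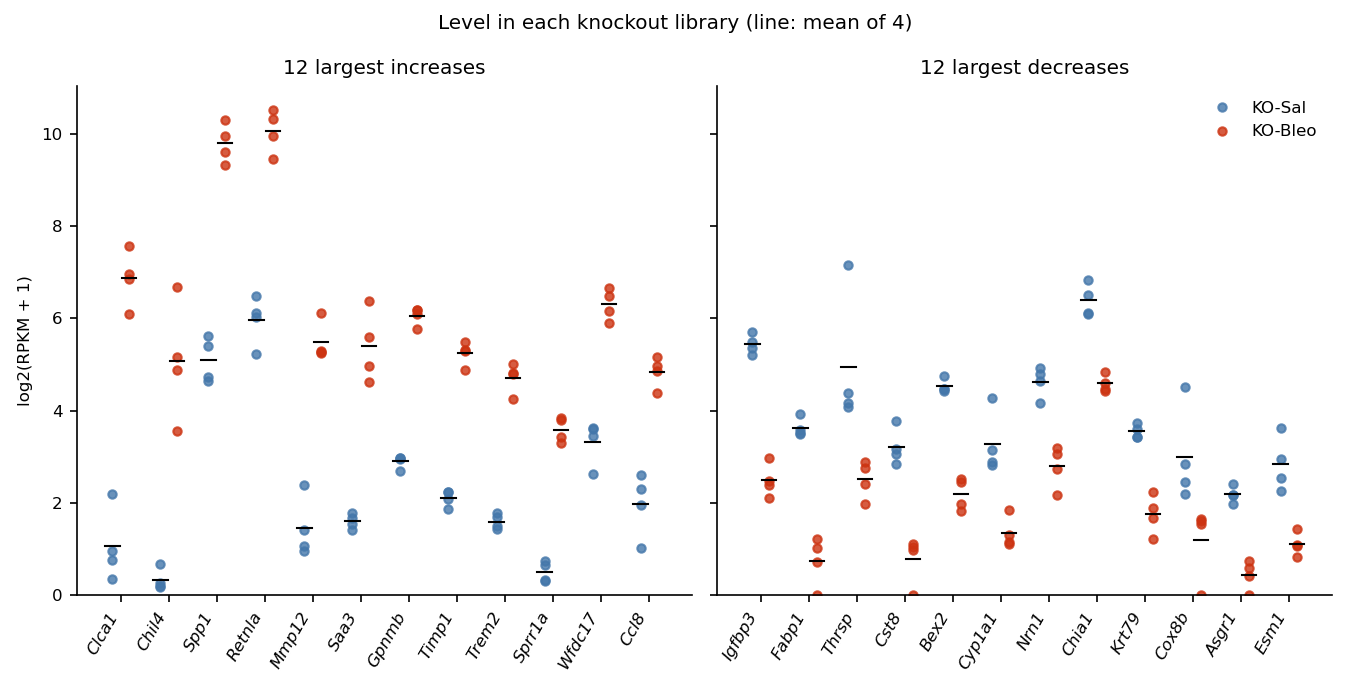
Level of each of the 12 genes with the largest increase (left) and the 12 with the largest decrease (right) in the 8 knockout libraries, as log2(RPKM + 1), with KO-Sal in blue, KO-Bleo in red and a black line at the mean of 4 libraries. The colours do not overlap for any of the 24 genes, as the rule that chose them requires, and Thrsp and Cox8b have 1 saline library, KO-Sal 10, far above the other 3.

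The largest decreases did not come from a single cell type. Igfbp3, which binds and carries insulin-like growth factors, was at 39.7, 43.9, 35.9 and 50.9 RPKM in KO-Sal 9 to 12 and 4.57, 6.85, 3.32 and 4.22 RPKM in KO-Bleo 13 to 16 and headed the 12 decreases (-2.95 ± 0.17 (SE), adjusted p = 5.5e-06). Fabp1, a fatty acid binding protein found in alveolar macrophages among lung cells, was at 10.3, 10.5, 10.9 and 14.2 RPKM in KO-Sal 9 to 12 and 0.644, 1.30, 0 and 1.02 RPKM in KO-Bleo 13 to 16 (-2.89 ± 0.23 (SE), adjusted p = 4.2e-05), and Cst8, a cystatin, at 8.02, 12.7, 7.32 and 6.18 RPKM in KO-Sal 9 to 12 and 1.05, 1.14, 0 and 0.978 RPKM in KO-Bleo 13 to 16 (-2.43 ± 0.26 (SE), adjusted p = 0.00021). The 0 values are those of the shallow library KO-Bleo 15, and the other 3 treated libraries were also below every saline library.

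Bex2 was at 20.4, 21.1, 26.04 and 21.3 RPKM in KO-Sal 9 to 12 and 2.52, 4.74, 4.49 and 2.90 RPKM in KO-Bleo 13 to 16 (-2.34 ± 0.16 (SE), adjusted p = 1.6e-05). Cyp1a1, the dioxin-inducible cytochrome P450, was at 6.41, 7.83, 6.002 and 18.4 RPKM in KO-Sal 9 to 12 and 1.46, 2.57, 1.16 and 1.20 RPKM in KO-Bleo 13 to 16 (-1.93 ± 0.30 (SE), adjusted p = 0.0015), with 1 saline library, KO-Sal 12, above the rest. Esm1, a proteoglycan of sprouting endothelium, was at 3.78, 4.77, 6.67 and 11.3 RPKM in KO-Sal 9 to 12 and 1.08, 1.68, 0.770 and 1.11 RPKM in KO-Bleo 13 to 16 (-1.74 ± 0.26 (SE), adjusted p = 0.0012). Chia1, the acidic chitinase that digests inhaled chitin, was at 90.6, 114, 67.5 and 68.3 RPKM in KO-Sal 9 to 12 and 20.6, 27.7, 23.4 and 21.2 RPKM in KO-Bleo 13 to 16 (-1.80 ± 0.16 (SE), adjusted p = 8.2e-05). It moved against Chil4, a relative without chitin-cutting activity. Nrn1 (-1.84), Krt79 (-1.80) and Asgr1 (-1.75) also fell, and all of these kept their call under all 16 alternative fits.

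Thrsp and Cox8b, genes of fat cells, complete the 12 and are less certain. Thrsp was at 19.7, 141, 15.9 and 17.04 RPKM in KO-Sal 9 to 12 and 5.71, 6.40, 2.94 and 4.33 RPKM in KO-Bleo 13 to 16 (-2.44 ± 0.65 (SE), adjusted p = 0.029) and Cox8b at 6.21, 21.7, 4.43 and 3.56 RPKM in KO-Sal 9 to 12 and 1.89, 2.06, 0 and 2.15 RPKM in KO-Bleo 13 to 16 (-1.80 ± 0.56 (SE), adjusted p = 0.0495). Both were highest in KO-Sal 10, the library with the high adipocyte level. Leaving out 1 KO-Bleo library, 13, 15 or 16, took Thrsp to an adjusted p of 0.064 to 0.069, limma-voom on whole reads took it to 0.18, and Cox8b kept its call under 5 of 16 alternative fits.

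Genes of the macrophages that gather in scarred lung had the largest share called higher among the 40 lists. These cells take up lipid and debris and secrete osteopontin and matrix-degrading enzymes. Of this list, 20 of 21 listed genes rose, 0 fell and 1 did not pass, with a median log2 change of 1.69 against -0.01 over all genes, and 21 of 21 had groups that did not overlap (15.3% of all genes were higher without overlap). Trem2, a lipid receptor of these cells, was at 2.41, 1.81, 2.22 and 1.67 RPKM in KO-Sal 9 to 12 and 27.1, 18.1, 31.02 and 26.8 RPKM in KO-Bleo 13 to 16 (3.12 ± 0.15 (SE), adjusted p = 2.6e-06). Gpnmb, a membrane glycoprotein of lysosomes, was at 6.88, 6.71, 6.86 and 5.44 RPKM in KO-Sal 9 to 12 and 71.3, 53.5, 71.2 and 67.1 RPKM in KO-Bleo 13 to 16 (3.16 ± 0.10 (SE), adjusted p = 5.2e-07). KO-Bleo 14 was the lowest treated library for both, and still far above the highest saline library. Msr1, a scavenger receptor (2.68 ± 0.13), Ctsd, the main lysosomal aspartyl protease (1.92 ± 0.11), and Lgals3, galectin-3 (1.17 ± 0.07), rose as well. Because whole lung was sequenced, more cells of a type cannot be told apart from more RNA per cell, here and for all cell type lists.

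Genes of the macrophages that reside in the alveoli went both ways. Of this list, 8 of 18 listed genes rose, 6 fell and 4 did not pass (median 0.06). Fabp1, Krt79 (-1.80 ± 0.18 (SE), adjusted p = 0.00015), Ear1 (-1.59 ± 0.15 (SE), adjusted p = 8.8e-05) and Car4 (-0.54 ± 0.08 (SE), adjusted p = 0.00098) fell. Ear1 is one of a family of near-identical ribonucleases, so its reads may be shared, and Car4 is also a capillary gene. Marco, a receptor for inhaled particles, was at 10.3, 16.9, 6.58 and 8.33 RPKM in KO-Sal 9 to 12 and 22.8, 23.4, 17.9 and 21.1 RPKM in KO-Bleo 13 to 16 (1.02 ± 0.22 (SE), adjusted p = 0.0084), and Itgax, which encodes CD11c, at 15.6, 15.5, 17.7 and 14.02 RPKM in KO-Sal 9 to 12 and 34.7, 31.6, 42.4 and 37.2 RPKM in KO-Bleo 13 to 16 (1.16 ± 0.10 (SE), adjusted p = 5.1e-05). Atp6v0d2 (1.29 ± 0.10 (SE), adjusted p = 3.1e-05) and Mrc1, the mannose receptor (0.74 ± 0.07 (SE), adjusted p = 0.00012), also rose. Pparg, the transcription factor that keeps these cells in their resident state and that adipocytes share, was at 7.36, 11.99, 6.43 and 6.47 RPKM in KO-Sal 9 to 12 and 6.46, 6.18, 9.40 and 6.88 RPKM in KO-Bleo 13 to 16 and did not pass (-0.11 ± 0.18 (SE), adjusted p = 0.69). Its highest value was in KO-Sal 10, and without that library the estimate turned to 0.07 (adjusted p = 0.74).

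Of the list for monocytes and interstitial macrophages, 8 of 18 listed genes rose, 2 fell and 8 did not pass. Ccl8, a monocyte-drawing chemokine of interstitial macrophages, was at 2.87, 3.90, 5.04 and 1.03 RPKM in KO-Sal 9 to 12 and 30.3, 19.8, 34.9 and 28.1 RPKM in KO-Bleo 13 to 16 (2.88 ± 0.31 (SE), adjusted p = 0.00026). Adgre1, which encodes the macrophage antigen F4/80, rose (1.11 ± 0.10 (SE), adjusted p = 7.6e-05), as did Ccr2, the receptor by which monocytes leave the marrow (0.77 ± 0.16 (SE), adjusted p = 0.0071), Fcgr4 (0.89 ± 0.16 (SE), adjusted p = 0.0035), Plac8 (0.58 ± 0.10 (SE), adjusted p = 0.0022) and Ly6c1 (0.84 ± 0.11 (SE), adjusted p = 0.00069). Ly6c2, the form that marks classical monocytes, was at 16.7, 14.6, 21.4 and 14.8 RPKM in KO-Sal 9 to 12 and 11.9, 10.2, 11.1 and 14.4 RPKM in KO-Bleo 13 to 16 (-0.46 ± 0.13 (SE), adjusted p = 0.029). The call of Ly6c2 was lost without KO-Sal 9 (-0.46, adjusted p = 0.069), KO-Sal 11 (-0.35, 0.057), KO-Bleo 13 (-0.47, 0.063), KO-Bleo 14 (-0.40, 0.073) or KO-Bleo 15 (-0.44, 0.053), and the number of listed genes that fell ran from 0 to 4 over the alternative fits. Ly6c1 and Ly6c2 are near copies whose reads the counting could split.

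**Figure D2:**
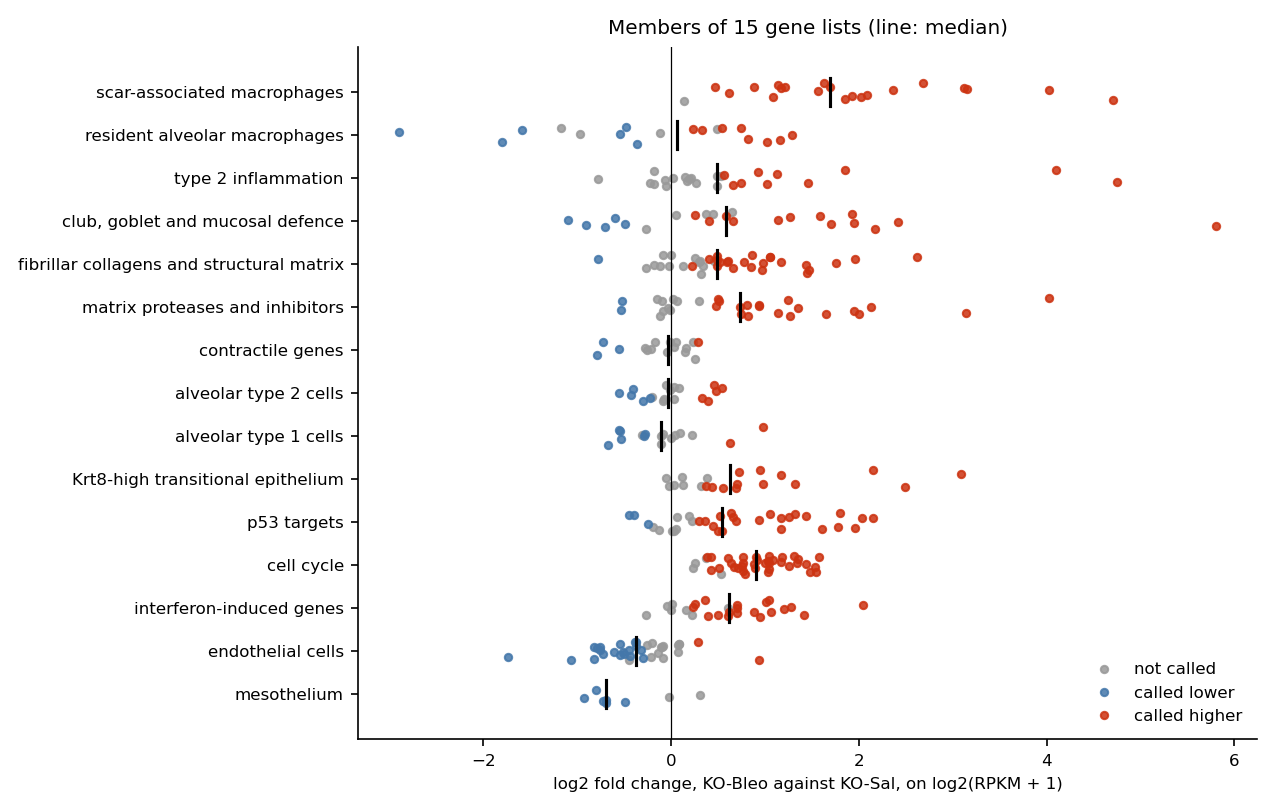
Log2 fold change of each member of 15 gene lists, KO-Bleo against KO-Sal, with 1 point per gene, red for called higher, blue for called lower and grey for not called, and a black line at the list's median. Scar-associated macrophage and cell cycle genes lie almost wholly to the right of 0, with medians of 1.69 and 0.91, while endothelial and mesothelial genes lie mostly to the left, with medians of -0.38 and -0.69.

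Genes of type 2 immunity, the response driven by IL-4, IL-5 and IL-13, rose or did not pass. Of their list, 10 of 25 listed genes rose, 0 fell and 15 did not pass (median 0.49). Beside Retnla and Chil4, Arg1, the arginase of alternatively activated macrophages, was at 1.72, 1.83, 1.35 and 1.79 RPKM in KO-Sal 9 to 12 and 14.8, 5.79, 8.77 and 7.08 RPKM in KO-Bleo 13 to 16 (1.85 ± 0.22 (SE), adjusted p = 0.00034). Ccl17, a chemokine that draws Th2 cells, was at 8.11, 9.36, 9.51 and 9.47 RPKM in KO-Sal 9 to 12 and 28.1, 22.9, 29.9 and 26.4 RPKM in KO-Bleo 13 to 16 (1.46 ± 0.09 (SE), adjusted p = 6.9e-06). Ccl11, which encodes eotaxin, rose (1.13 ± 0.12 (SE), adjusted p = 0.0002), as did Mgl2, a lectin of alternatively activated macrophages (1.02 ± 0.12 (SE), adjusted p = 0.00031). The cytokine Il5 was at 0.404, 0.536, 0.294 and 0.268 RPKM in KO-Sal 9 to 12 and 0.310, 0.383, 0 and 0.179 RPKM in KO-Bleo 13 to 16, which is 0 to 14 reads per library, and its change did not pass (-0.18 ± 0.11 (SE), adjusted p = 0.26).

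Airway secretory genes moved in both directions. Of the list for club cells, goblet cells and mucosal defence, 13 of 23 listed genes rose, 5 fell and 5 did not pass (median 0.59). Goblet and defence genes were among the increases. Muc5ac, the inducible gel mucin, was at 0.311, 0.297, 0.189 and 0.372 RPKM in KO-Sal 9 to 12 and 2.69, 2.10, 3.05 and 3.84 RPKM in KO-Bleo 13 to 16 (1.58 ± 0.13 (SE), adjusted p = 5.6e-05), and Agr2, an enzyme that folds mucins, at 2.52, 1.85, 2.03 and 2.70 RPKM in KO-Sal 9 to 12 and 16.1, 7.94, 10.7 and 12.3 RPKM in KO-Bleo 13 to 16 (1.93 ± 0.18 (SE), adjusted p = 8.7e-05). Reg3g, an antibacterial lectin, was at 65.97, 39.8, 35.2 and 59.6 RPKM in KO-Sal 9 to 12 and 382, 181, 188 and 368 RPKM in KO-Bleo 13 to 16 (2.42 ± 0.30 (SE), adjusted p = 0.00072), and Gp2 rose as well (2.17 ± 0.22 (SE), adjusted p = 0.00016). Muc5b, the constitutive mucin, was at 6.21, 8.15, 3.95 and 6.90 RPKM in KO-Sal 9 to 12 and 8.13, 8.09, 5.95 and 11.6 RPKM in KO-Bleo 13 to 16 with overlap between the groups (0.38 ± 0.21 (SE), adjusted p = 0.22), and it passed without KO-Sal 10 and KO-Bleo 15 together (0.63, adjusted p = 0.041).

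Club cell genes were among the decreases. Cyp2f2, the cytochrome P450 of club cells, was at 1397, 1592, 1433 and 1114 RPKM in KO-Sal 9 to 12 and 837, 719.9, 702 and 681 RPKM in KO-Bleo 13 to 16 (-0.91 ± 0.11 (SE), adjusted p = 0.00044), and Bpifa1, a secreted defence protein of the upper airways, at 335, 339, 256 and 327 RPKM in KO-Sal 9 to 12 and 191, 164, 111 and 130.2 RPKM in KO-Bleo 13 to 16 (-1.09 ± 0.16 (SE), adjusted p = 0.0011). Scgb1a1, the main club cell secretoglobin, was at 52163, 64862, 61472 and 45628 RPKM in KO-Sal 9 to 12 and 45864, 35894, 38620.0 and 37909 RPKM in KO-Bleo 13 to 16 (-0.49 ± 0.13 (SE), adjusted p = 0.023). KO-Bleo 13 lay just above the lowest saline library for it, and the call was lost without KO-Sal 10 (-0.42, adjusted p = 0.063), KO-Bleo 14 (-0.45, 0.058), KO-Bleo 15 (-0.48, 0.062) or KO-Bleo 16 (-0.48, 0.065) and without KO-Sal 10 and KO-Bleo 15 together (-0.41, 0.15). Of the ciliated cell list, 0 of 17 listed genes rose, 4 fell and 13 did not pass, and leaving out 1 of 5 libraries (KO-Sal 9, 10 or 11, KO-Bleo 14 or 16) reduced the 4 to 2. Leaving out KO-Sal 10 and KO-Bleo 15 together also left 2. Tppp3, a tubulin-binding protein, was at 249, 279.8, 273 and 258 RPKM in KO-Sal 9 to 12 and 150.4, 139, 119 and 133 RPKM in KO-Bleo 13 to 16 (-0.97 ± 0.08 (SE), adjusted p = 5e-05) and Hydin, a part of the ciliary axoneme, at 5.29, 4.42, 3.95 and 3.48 RPKM in KO-Sal 9 to 12 and 2.66, 2.68, 2.21 and 2.78 RPKM in KO-Bleo 13 to 16 (-0.55 ± 0.12 (SE), adjusted p = 0.0073). Foxj1, the master regulator of these cells, was not called (-0.29 ± 0.17 (SE), adjusted p = 0.26).

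Most structural matrix genes rose. Of the list of fibrillar collagens and structural matrix, 23 of 37 listed genes rose, 1 fell and 13 did not pass (median 0.49). Col1a1, the first chain of collagen I, was at 28.7, 24.8, 24.8 and 40.2 RPKM in KO-Sal 9 to 12 and 52.96, 61.8, 50.2 and 85.6 RPKM in KO-Bleo 13 to 16 (1.05 ± 0.19 (SE), adjusted p = 0.003), and Col3a1, the chain of collagen III, at 75.2, 80.4, 66.2 and 124 RPKM in KO-Sal 9 to 12 and 198, 235, 213 and 303 RPKM in KO-Bleo 13 to 16 (1.47 ± 0.19 (SE), adjusted p = 0.00053). KO-Sal 12 was the highest saline library and KO-Bleo 16 the highest treated library for both, and the groups did not overlap. Col1a2 (0.97 ± 0.15) and Col5a2 (1.45 ± 0.15) rose with them. Matrix glycoproteins rose too. Tnc, tenascin C, which is nearly absent from healthy adult lung, was at 1.93, 1.99, 1.38 and 3.17 RPKM in KO-Sal 9 to 12 and 16.9, 13.8, 19.8 and 21.7 RPKM in KO-Bleo 13 to 16 (2.62 ± 0.18 (SE), adjusted p = 1.6e-05), and Fn1, fibronectin, at 39.5, 30.97, 28.9 and 44.98 RPKM in KO-Sal 9 to 12 and 132, 117, 149 and 171 RPKM in KO-Bleo 13 to 16 (1.96 ± 0.15 (SE), adjusted p = 3.6e-05). Vcan, the proteoglycan versican, rose as well (1.44 ± 0.11), as did Sparc, a collagen-binding protein (1.06 ± 0.10). The 1 listed gene that fell was Tnxb, tenascin X, at 16.02, 11.3, 12.4 and 12.7 RPKM in KO-Sal 9 to 12 and 5.39, 7.78, 6.35 and 9.73 RPKM in KO-Bleo 13 to 16 (-0.78 ± 0.16 (SE), adjusted p = 0.0059).

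Of the enzymes and chaperones that build collagen, 13 of 23 listed genes rose, 3 fell and 7 did not pass (median 0.30). Lox, the lysyl oxidase that cross-links collagen and elastin, was at 7.07, 11.3, 10.1 and 13.9 RPKM in KO-Sal 9 to 12 and 27.99, 25.1, 24.6 and 32.2 RPKM in KO-Bleo 13 to 16 (1.32 ± 0.17 (SE), adjusted p = 0.00044). Loxl2 (0.9996 ± 0.12 (SE), adjusted p = 0.00038) rose, and Loxl1, at 17.1, 18.97, 20.03 and 28.1 RPKM in KO-Sal 9 to 12 and 21.8, 25.6, 21.6 and 25.5 RPKM in KO-Bleo 13 to 16, did not pass (0.18 ± 0.13 (SE), adjusted p = 0.37), although it did without KO-Sal 12 (0.32, adjusted p = 0.035). P4ha3, a prolyl hydroxylase of collagen (1.14 ± 0.13), Fkbp10 (0.69 ± 0.09) and Serpinh1, the collagen chaperone HSP47 (0.36 ± 0.07), rose. Pcolce2, which enhances the trimming of procollagen, fell, from 113 ± 16.97 RPKM in KO-Sal to 53.7 ± 8.18 RPKM in KO-Bleo (mean ± SD, n = 4) (-1.06 ± 0.13 (SE), adjusted p = 0.00035). Of the basement membrane list, 9 of 22 listed genes rose, 1 fell and 12 did not pass (median 0.23). Col4a1, a chain of collagen IV found in every basement membrane, was at 93.4, 92.1, 90.9 and 118 RPKM in KO-Sal 9 to 12 and 194, 179.6, 177 and 239 RPKM in KO-Bleo 13 to 16 (0.99 ± 0.11 (SE), adjusted p = 0.00026). Lama1, a laminin chain, rose (1.18 ± 0.15), while Col4a3, a chain particular to the alveolar and glomerular membranes, did not pass (0.22 ± 0.11 (SE), adjusted p = 0.16), except without KO-Sal 12 (0.32, adjusted p = 0.029).

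Among matrix proteases and their inhibitors, 19 of 30 listed genes rose, 2 fell and 9 did not pass (median 0.74). Both sides of the balance rose. Timp1, an inhibitor of metalloproteases, was at 3.70, 2.65, 3.22 and 3.68 RPKM in KO-Sal 9 to 12 and 38.01, 28.5, 38.9 and 43.9 RPKM in KO-Bleo 13 to 16 (3.14 ± 0.13 (SE), adjusted p = 1.2e-06). Mmp2, gelatinase A of fibroblasts, was at 26.6, 20.97, 24.6 and 31.1 RPKM in KO-Sal 9 to 12 and 93.3, 99.01, 106 and 124 RPKM in KO-Bleo 13 to 16 (1.999 ± 0.12 (SE), adjusted p = 6.9e-06), and Ctsk, a collagen-cutting cathepsin, at 20.4, 17.5, 21.7 and 16.97 RPKM in KO-Sal 9 to 12 and 79.5, 76.7, 75.7 and 73.7 RPKM in KO-Bleo 13 to 16 (1.95 ± 0.08 (SE), adjusted p = 1.2e-06). Ctss (2.12 ± 0.12) and Mmp19 (1.65 ± 0.11) rose too. Mmp15, a membrane-bound metalloprotease, fell (-0.53 ± 0.08 (SE), adjusted p = 0.0012).

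Contractile genes of smooth muscle and myofibroblasts mostly did not pass, which also holds for all genes, of which 23.6% were called. Of this list, 1 of 16 listed genes rose, 3 fell and 12 did not pass (median -0.03). Acta2, smooth muscle actin, was at 40.4, 28.5, 45.3 and 41.3 RPKM in KO-Sal 9 to 12 and 29.9, 45.5, 56.98 and 53.4 RPKM in KO-Bleo 13 to 16 and the groups overlapped (0.23 ± 0.20 (SE), adjusted p = 0.44). Tagln was likewise not called (0.25 ± 0.16 (SE), adjusted p = 0.27). Itga8, an integrin of alveolar myofibroblasts and smooth muscle, was at 74.7, 56.02, 65.3 and 80.9 RPKM in KO-Sal 9 to 12 and 31.6, 48.6, 45.9 and 40.6 RPKM in KO-Bleo 13 to 16 and fell (-0.72 ± 0.14 (SE), adjusted p = 0.0056), as did Mylk, myosin light chain kinase (-0.55 ± 0.11 (SE), adjusted p = 0.0059). Cnn1, calponin, fell (-0.79 ± 0.22 (SE), adjusted p = 0.025), with the call lost without KO-Sal 9 (-0.76, adjusted p = 0.067), KO-Sal 11 (-0.72, 0.067) or KO-Sal 12 (-0.79, 0.054). Cald1 was the 1 listed gene that rose (0.29 ± 0.06 (SE), adjusted p = 0.007).

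Type 2 alveolar cells make surfactant and renew the alveolar lining. Of their genes, 5 of 18 listed genes rose, 5 fell and 8 did not pass, with a median of -0.03 near that of all genes. Sftpc was at 15669, 17191, 17121 and 14295 RPKM in KO-Sal 9 to 12 and 14797, 14294, 13356 and 13327 RPKM in KO-Bleo 13 to 16 (-0.20 ± 0.09 (SE), adjusted p = 0.13), passing only with limma-voom (-0.20, adjusted p = 0.040), and Sftpb, surfactant protein B, was not called either (-0.08 ± 0.08 (SE), adjusted p = 0.50). Sftpa1, surfactant protein A, was at 1470.4, 1753, 1427 and 1448 RPKM in KO-Sal 9 to 12 and 1096, 1253, 1101 and 1085 RPKM in KO-Bleo 13 to 16 and fell (-0.42 ± 0.09 (SE), adjusted p = 0.0065), and Hc, complement C5, fell (-0.56 ± 0.10 (SE), adjusted p = 0.0038). Sftpd, surfactant protein D, rose from 553 ± 57.7 RPKM in KO-Sal to 775 ± 96.2 RPKM in KO-Bleo (mean ± SD, n = 4) (0.48 ± 0.10 (SE), adjusted p = 0.0085), and Napsa, a protease that processes surfactant proteins (0.33 ± 0.07), Muc1 (0.46 ± 0.08) and Chil1, a chitinase-like protein (0.54 ± 0.10), rose as well. The number that fell dropped from 5 to 2 or 3 without KO-Sal 9, 10 or 12 or KO-Bleo 13 or 16, and the 5 that rose stayed 5 in number under all 16 alternative fits. None of the 18 changed by 1.5-fold, so by the study's thresholds 0 rose and 0 fell. The part of other lung cells in the levels of these genes was not tested.

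Type 1 cells are the thin cells across which gas passes. Of their genes, 2 of 16 listed genes rose, 6 fell and 8 did not pass (median -0.11), and 1 in place of 2 rose without KO-Bleo 13. Hopx was at 254, 273, 296 and 286 RPKM in KO-Sal 9 to 12 and 200.1, 194, 176 and 185 RPKM in KO-Bleo 13 to 16 (-0.55 ± 0.07 (SE), adjusted p = 0.00046) and Rtkn2 at 67.2, 59.6, 61.3 and 70.3 RPKM in KO-Sal 9 to 12 and 41.5, 39.7, 38.9 and 40.4 RPKM in KO-Bleo 13 to 16 (-0.67 ± 0.06 (SE), adjusted p = 0.0001). Vegfa, the growth factor by which these cells maintain capillaries, was at 138, 124, 130.2 and 134 RPKM in KO-Sal 9 to 12 and 90.7, 93.9, 82.99 and 94.2 RPKM in KO-Bleo 13 to 16 (-0.54 ± 0.06 (SE), adjusted p = 0.0003). The 4 treated libraries lay in a narrow range below every saline library for all of these. Pdpn, podoplanin, rose (0.63 ± 0.07 (SE), adjusted p = 0.00017). Ager, the abundant surface receptor of type 1 cells (-0.11 ± 0.08 (SE), adjusted p = 0.33), and Aqp5, a water channel (-0.09 ± 0.07 (SE), adjusted p = 0.41), were not called.

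The transitional epithelium that appears after injury, high in Krt8, is known from mouse bleomycin models. Of its genes, 13 of 20 listed genes rose, 0 fell and 7 did not pass (median 0.62). Not all of them are particular to this epithelium, and Lgals3, named above with the macrophage genes, is a member here too. The listed keratins besides Krt8 are named after their values were seen. Krt18 (0.56) and Krt7 (0.37) rose, while Krt19 (-0.02, adjusted p = 0.92) and Krt20 (0.11, adjusted p = 0.27) were not called. Sprr1a, a cornified envelope protein, was at 0.571, 0.223, 0.244 and 0.668 RPKM in KO-Sal 9 to 12 and 12.8, 9.67, 13.3 and 8.76 RPKM in KO-Bleo 13 to 16 (3.08 ± 0.16 (SE), adjusted p = 3.5e-06). Cldn4, a tight junction claudin, was at 1.65, 1.85, 1.35 and 1.46 RPKM in KO-Sal 9 to 12 and 15.99, 10.4, 15.2 and 13.01 RPKM in KO-Bleo 13 to 16 (2.50 ± 0.13 (SE), adjusted p = 3.5e-06). Cdkn1a, the p53-induced brake on the cell cycle, was at 27.5, 52.7, 41.998 and 47.2 RPKM in KO-Sal 9 to 12 and 213, 169, 156 and 215 RPKM in KO-Bleo 13 to 16 (2.15 ± 0.19 (SE), adjusted p = 6.3e-05), and Anxa1 rose too (0.95 ± 0.09). Krt8 itself was at 101, 123, 109.9 and 89.1 RPKM in KO-Sal 9 to 12 and 161, 117, 118 and 134 RPKM in KO-Bleo 13 to 16 and missed the threshold (0.32 ± 0.12 (SE), adjusted p = 0.08), which it passed without KO-Sal 10 (0.40, adjusted p = 0.045), with library quality weights (0.41, 0.021), with limma-voom (0.36, 0.039) and with the spread shared by all groups (0.32, 0.030).

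The number of basal cell genes called varied widely with the libraries and the fit. Of the basal and squamous list, 2 of 13 listed genes rose, 1 fell and 10 did not pass, and the number that rose was 8 without KO-Bleo 15, 7 with library quality weights and 9 with limma-voom on the recovered reads. Krt5 was at 0.232, 0.188, 0.0588 and 0.161 RPKM in KO-Sal 9 to 12 and 1.83, 1.29, 0 and 0.795 RPKM in KO-Bleo 13 to 16 (0.67 ± 0.26 (SE), adjusted p = 0.089), Krt14 at 0.0926, 0.193, 0.106 and 0.0643 RPKM in KO-Sal 9 to 12 and 0.782, 0.615, 0 and 0.603 RPKM in KO-Bleo 13 to 16 (0.40 ± 0.16 (SE), adjusted p = 0.097) and Krt17 at 0.0363, 0.189, 0.0414 and 0.189 RPKM in KO-Sal 9 to 12 and 0.783, 0.378, 0 and 0.472 RPKM in KO-Bleo 13 to 16 (0.31 ± 0.15 (SE), adjusted p = 0.17). In all of these the treated libraries other than KO-Bleo 15 lay above every saline library, and KO-Bleo 15 was at 0. Without it Krt5 rose (0.97, adjusted p = 0.0013), and so did Krt14 (0.58, 0.00051) and Krt17 (0.47, 0.0090). Leaving out KO-Bleo 13 instead left no listed gene called higher, and leaving out any of the other 6 libraries left 1.

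**Figure D3:**
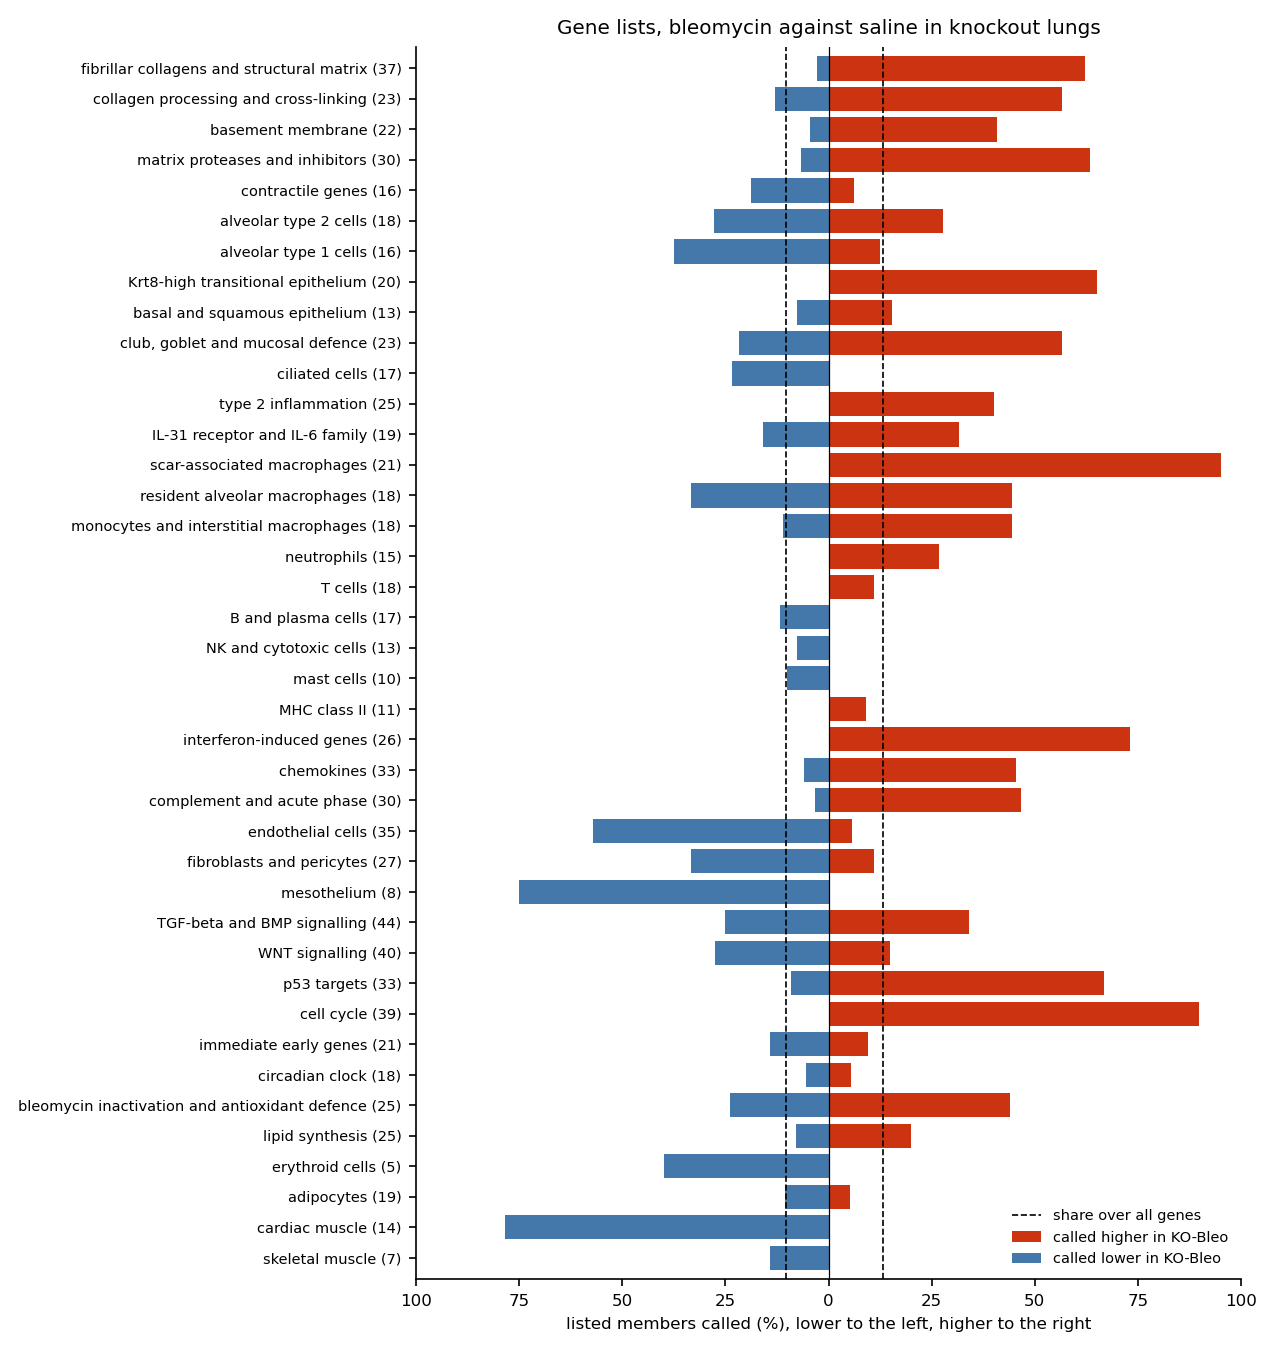
Share of the listed members of each of the 40 gene lists called higher (red, to the right) and lower (blue, to the left) in KO-Bleo, in percent, with the number listed in brackets and dashed lines at the shares over all genes, 13.2% and 10.4%. Scar-associated macrophages, cell cycle, interferon-induced genes, p53 targets and Krt8-high epithelium reach farthest to the right, and cardiac muscle, mesothelium and endothelial cells farthest to the left.

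Most p53 targets rose. Of the p53 target list, 22 of 33 listed genes rose, 3 fell and 8 did not pass (median 0.54), and the 3 that fell became 1 without KO-Sal 9, 11 or 12 or KO-Bleo 15. Ccng1, cyclin G1, was at 56.7, 61.4, 51.6 and 49.4 RPKM in KO-Sal 9 to 12 and 239, 195, 224 and 208 RPKM in KO-Bleo 13 to 16 (1.96 ± 0.09 (SE), adjusted p = 1.6e-06). Eda2r, a death-domain receptor, was at 1.01, 1.47, 0.887 and 0.734 RPKM in KO-Sal 9 to 12 and 7.82, 6.78, 6.54 and 7.83 RPKM in KO-Bleo 13 to 16 (2.03 ± 0.12 (SE), adjusted p = 6.8e-06). Bax, which opens the mitochondrial membrane in cell death, was at 28.5, 26.5, 35.98 and 28.3 RPKM in KO-Sal 9 to 12 and 77.8, 69.6, 75.5 and 78.8 RPKM in KO-Bleo 13 to 16 (1.32 ± 0.09 (SE), adjusted p = 1.8e-05). The groups did not overlap for any of these. Phlda3 (1.60 ± 0.13), Trp53inp1 (1.17 ± 0.10) and Gdf15 (1.77 ± 0.19) rose, as did Mdm2, the ubiquitin ligase that returns p53 to low levels (0.64 ± 0.06). Ddb2, a DNA damage sensor, was the largest decrease of the list (-0.44 ± 0.13 (SE), adjusted p = 0.035). Its call was lost without KO-Sal 9 (-0.41, adjusted p = 0.099), KO-Sal 11 (-0.39, 0.093), KO-Sal 12 (-0.48, 0.053), KO-Bleo 14 (-0.44, 0.073) or KO-Bleo 15 (-0.34, 0.051).

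Genes of dividing cells rose too. Of the cell cycle list, 35 of 39 listed genes rose, 0 fell and 4 did not pass (median 0.91), and the number that rose was 33 to 39 over the alternative fits and 31 by the study's thresholds. Mki67, the proliferation antigen, was at 4.01, 2.78, 3.72 and 5.10 RPKM in KO-Sal 9 to 12 and 12.7, 9.78, 11.4 and 11.4 RPKM in KO-Bleo 13 to 16 (1.34 ± 0.14 (SE), adjusted p = 0.00015). Top2a, the topoisomerase that untangles chromosomes, was at 6.13, 4.34, 5.85 and 6.86 RPKM in KO-Sal 9 to 12 and 18.2, 15.02, 21.9 and 21.9 RPKM in KO-Bleo 13 to 16 (1.57 ± 0.14 (SE), adjusted p = 8.3e-05). Cdk1, the kinase that starts mitosis, was at 1.46, 0.698, 1.24 and 1.66 RPKM in KO-Sal 9 to 12 and 6.74, 4.15, 4.53 and 7.15 RPKM in KO-Bleo 13 to 16 (1.54 ± 0.19 (SE), adjusted p = 0.00035). KO-Sal 10 was the lowest library for all 3, and all 4 treated libraries lay above all 4 saline libraries. Plk1, a mitotic kinase (1.08 ± 0.12), and Rrm1, a subunit of the enzyme that makes DNA precursors (0.91 ± 0.08), rose as well.

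Many genes of late cell cycle carry a pair of promoter elements, the CCAAT box, bound by NF-Y, and the cell cycle homology region, bound by the DREAM and MuvB complexes. The last 120 bases before the start are shown here for genes described above, since these members move together. They are from RefSeq (GRCm38.p6), 5′ to 3′ on the strand of the gene, with capitals at each match to TTTGAA or CCAAT on either strand.
Mki67 (minus strand, chr7:135716380-135716499): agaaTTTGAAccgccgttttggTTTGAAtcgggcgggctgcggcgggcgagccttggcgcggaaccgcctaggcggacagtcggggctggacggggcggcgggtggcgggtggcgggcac
Top2a (minus strand, chr11:99024190-99024309): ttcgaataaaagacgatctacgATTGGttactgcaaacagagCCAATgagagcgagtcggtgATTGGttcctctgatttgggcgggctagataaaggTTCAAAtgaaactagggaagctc
Cdk1 (minus strand, chr10:69352913-69353032): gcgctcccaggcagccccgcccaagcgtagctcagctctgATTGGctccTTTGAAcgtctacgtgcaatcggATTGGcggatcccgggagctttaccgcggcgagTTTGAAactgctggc
Plk1 (plus strand, chr7:122159315-122159434): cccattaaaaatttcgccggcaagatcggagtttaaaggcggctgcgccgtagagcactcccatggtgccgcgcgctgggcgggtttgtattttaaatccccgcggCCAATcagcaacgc
Top2a and Cdk1 hold both motifs in this stretch, Mki67 holds TTTGAA only and Plk1 holds CCAAT only. Promoters were matched for 31 of the 39 listed genes. Within the last 100 bases, CCAAT was present on either strand in 21 of them (67.7%) against 19.6% of all 27025 promoters, and TTTGAA in 7 (22.6%) against 5.91%. Over the whole 250 bases searched, the shares were 77.4% against 34.5% for CCAAT and 25.8% against 16.3% for TTTGAA. These are matches of letters and no measurement of binding.

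Most interferon-induced genes rose. These genes limit viruses and are switched on by interferons. Of the list, 19 of 26 listed genes rose, 0 fell and 7 did not pass (median 0.61). Isg15, a ubiquitin-like modifier, was at 9.39, 10.8, 9.87 and 13.04 RPKM in KO-Sal 9 to 12 and 35.7, 23.7, 36.4 and 26.9 RPKM in KO-Bleo 13 to 16 (1.41 ± 0.15 (SE), adjusted p = 0.00015). Irf7, the factor that amplifies the response, was at 8.31, 9.75, 9.69 and 10.996 RPKM in KO-Sal 9 to 12 and 25.98, 19.5, 24.8 and 24.6 RPKM in KO-Bleo 13 to 16 (1.21 ± 0.10 (SE), adjusted p = 6.1e-05). Cxcl10, a chemokine for activated T cells, was at 2.20, 2.99, 2.22 and 1.17 RPKM in KO-Sal 9 to 12 and 9.70, 9.76, 13.99 and 14 RPKM in KO-Bleo 13 to 16 (2.04 ± 0.19 (SE), adjusted p = 8.7e-05). Zbp1, a sensor of nucleic acid in the Z form, rose too (1.04 ± 0.10), and so did Ifit1, which binds viral RNA, at 10.9, 16.9, 13.9 and 12.8 RPKM in KO-Sal 9 to 12 and 31.5, 24.2, 31.3 and 26.6 RPKM in KO-Bleo 13 to 16 (1.01 ± 0.13 (SE), adjusted p = 0.00046).

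The response element of this pathway, GAAANNGAAA on either strand, was present within 250 bases before the start in 12 of the 17 listed genes with a matched promoter (70.6%) against 3.04% of all promoters. A match did not go with the call in every gene. Every gene with a matched promoter that holds none rose, namely Irf7, Ifit2, Oasl2, Ifi44 and Cxcl9. Stat2, Gbp2, Gbp5 and Igtp hold a match and were not called. Apart from Irf7, the genes of this comparison are named after their values were seen. In this list the match therefore did not separate the genes that rose from those not called. The last 120 bases are shown for Ifit1 and Isg15, from RefSeq (GRCm38.p6) on the strand of the gene with each match in capitals.
Ifit1 (plus strand, chr19:34640769-34640888): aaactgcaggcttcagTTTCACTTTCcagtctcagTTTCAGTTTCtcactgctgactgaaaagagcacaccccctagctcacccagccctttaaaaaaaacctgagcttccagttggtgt
Isg15 (minus strand, chr4:156200819-156200938): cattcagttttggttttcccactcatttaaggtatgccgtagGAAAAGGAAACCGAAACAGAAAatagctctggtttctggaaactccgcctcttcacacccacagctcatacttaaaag
Ifit1 holds 2 matches and Isg15 holds 3 that overlap each other. As above, these are matches of letters.

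Chemokines for monocytes were among the secreted signals that rose. Of the chemokine list, 15 of 33 listed genes rose, 2 fell and 16 did not pass (median 0.22). Ccl2, the main ligand of Ccr2, was at 1.40, 1.67, 1.44 and 0.946 RPKM in KO-Sal 9 to 12 and 10.9, 7.89, 15.1 and 10.1 RPKM in KO-Bleo 13 to 16 (2.32 ± 0.17 (SE), adjusted p = 2.6e-05), and Ccl7, a neighbour with the same receptor, at 1.06, 0.881, 1.29 and 0.661 RPKM in KO-Sal 9 to 12 and 6.61, 4.88, 10.1 and 5.16 RPKM in KO-Bleo 13 to 16 (1.93 ± 0.19 (SE), adjusted p = 0.00013). Ccl9 (2.04 ± 0.16) and Ccl6 (1.58 ± 0.10), chemokines of rodent macrophages, and Cxcl1, a ligand for neutrophils (0.82 ± 0.19), rose. Ppbp, a platelet chemokine, was at 24.01, 18.5, 31.2 and 17.9 RPKM in KO-Sal 9 to 12 and 7.52, 13.3, 18.7 and 9.62 RPKM in KO-Bleo 13 to 16 (-0.89 ± 0.26 (SE), adjusted p = 0.034), with KO-Bleo 15 inside the saline range. Its call was lost without KO-Sal 9 (-0.85, adjusted p = 0.076), KO-Sal 11 (-0.73, 0.076), KO-Bleo 13 (-0.70, 0.071) or KO-Bleo 16 (-0.80, 0.083) and with the spread shared by all groups (-0.89, 0.091). The 2 calls lower became 0 or 1 without KO-Sal 9, 11 or 12 or KO-Bleo 13 or 16.

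Of the complement and acute phase list, 14 of 30 listed genes rose, 1 fell and 15 did not pass (median 0.31), with 2 falling without KO-Sal 12. Serpina3n, a protease inhibitor in a cluster of close copies, was at 26.7, 27.4, 29.2 and 28.2 RPKM in KO-Sal 9 to 12 and 139, 118, 131 and 168 RPKM in KO-Bleo 13 to 16 (2.27 ± 0.10 (SE), adjusted p = 1.2e-06). Lcn2, which withholds iron from bacteria and is made by injured epithelium and by neutrophils, was at 137, 128, 123 and 90.6 RPKM in KO-Sal 9 to 12 and 776, 528, 534 and 855 RPKM in KO-Bleo 13 to 16 (2.47 ± 0.18 (SE), adjusted p = 2.6e-05). Cfb, factor B of the alternative pathway (1.46 ± 0.19), Ptx3 (1.35 ± 0.14) and Clu, clusterin (0.87 ± 0.12), rose. C3, the central complement protein, was at 193, 250.1, 167 and 164 RPKM in KO-Sal 9 to 12 and 217, 225, 215 and 290.0 RPKM in KO-Bleo 13 to 16 and did not pass (0.30 ± 0.14 (SE), adjusted p = 0.16), although it did without KO-Sal 10, the library with the highest saline value (0.43, adjusted p = 0.030).

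Most granulocyte and lymphocyte genes did not pass, which also holds for all genes, of which 13.2% were called higher and 10.4% lower. Of the neutrophil list, 4 of 15 listed genes rose, 0 fell and 11 did not pass. Mmp8, the neutrophil collagenase, rose (0.74 ± 0.12 (SE), adjusted p = 0.0023). S100a8, an abundant neutrophil protein, was not called (0.47 ± 0.26 (SE), adjusted p = 0.22). Of the T cell list, 2 of 18 listed genes rose, 0 fell and 16 did not pass. Cd3e (-0.41 ± 0.18 (SE), adjusted p = 0.13), Cd4 (0.25 ± 0.15 (SE), adjusted p = 0.26) and Cd8a (-0.34 ± 0.32 (SE), adjusted p = 0.48) did not pass, and Cd3e passed without KO-Sal 10 (-0.56, adjusted p = 0.043). The 2 that rose were Foxp3 and Ctla4. Foxp3, the defining transcription factor of regulatory T cells, was low, at 0.201, 0.164, 0.262 and 0.194 RPKM in KO-Sal 9 to 12 and 0.457, 0.626, 0.825 and 0.793 RPKM in KO-Bleo 13 to 16 (0.47 ± 0.09 (SE), adjusted p = 0.0037). Ctla4, an inhibitory receptor, was at 1.37, 0.698, 1.93 and 1.46 RPKM in KO-Sal 9 to 12 and 2.16, 2.71, 2.09 and 4.51 RPKM in KO-Bleo 13 to 16 (0.70 ± 0.21 (SE), adjusted p = 0.038). The groups did not overlap for either. Without KO-Sal 9, 10 or 12 or KO-Bleo 14 or 16, 1 listed T cell gene in place of 2 rose. In place of 0, 2 listed T cell genes fell without KO-Sal 10, and 1 fell without KO-Sal 10 and KO-Bleo 15. The call of Ctla4 was lost without KO-Sal 9 (0.71, adjusted p = 0.081), KO-Sal 10 (0.55, 0.085), KO-Sal 12 (0.72, 0.066), KO-Bleo 14 (0.70, 0.071) or KO-Bleo 16 (0.51, 0.077).

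Of the B and plasma cell list, 0 of 17 listed genes rose, 2 fell and 15 did not pass, and of the NK and cytotoxic list, 0 of 13 listed genes rose, 1 fell and 12 did not pass. Blk, a B cell kinase, fell (-0.56 ± 0.11 (SE), adjusted p = 0.006), while Ms4a1, which encodes CD20, did not pass (-0.46 ± 0.18 (SE), adjusted p = 0.091), except without KO-Sal 9 (-0.61, adjusted p = 0.024). These counts depended on single libraries and on the fit. Genes of B and plasma cells called lower numbered 5 with library quality weights, 7 with limma-voom, 6 without KO-Bleo 15, 4 without KO-Sal 9 or 12, and 1 without KO-Sal 10 or 11 or KO-Bleo 13 or 14. With KO-Sal 10 and KO-Bleo 15 left out together the number was 6. NK genes called lower numbered 6 with library quality weights, 3 with limma-voom, 4 without KO-Sal 10, 8 without KO-Sal 10 and KO-Bleo 15, and 2 without KO-Bleo 15 alone. They numbered 0 without KO-Sal 9 or 12 or KO-Bleo 13, 14 or 16. Gzmb, granzyme B of killer cells, was at 6.04, 3.26, 8.21 and 6.44 RPKM in KO-Sal 9 to 12 and 2.17, 2.61, 4.28 and 5.002 RPKM in KO-Bleo 13 to 16 (-0.63 ± 0.26 (SE), adjusted p = 0.11) and fell without KO-Sal 10 (-0.85, adjusted p = 0.026) and with library quality weights (-0.75, 0.038). Of the mast cell list, 0 of 10 listed genes rose, 1 fell and 9 did not pass, with 2 falling without KO-Sal 10 or KO-Bleo 15. Of the class II antigen presentation list, 1 of 11 listed genes rose, 0 fell and 10 did not pass, and the 1 that rose was lost without KO-Sal 9 or 10 or any KO-Bleo library. H2-Aa (0.18 ± 0.12 (SE), adjusted p = 0.30) and Cd74 (0.26 ± 0.11 (SE), adjusted p = 0.11) were not called, although Cd74 passed without KO-Sal 11 (0.34, adjusted p = 0.041).

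Most endothelial genes fell. Of the list, 2 of 35 listed genes rose, 20 fell and 13 did not pass (median -0.38), 17 to 20 fell under the alternative fits and 9 by the study's thresholds, and 1 in place of 2 rose without KO-Sal 9. Ednrb, the endothelin receptor of aerocyte capillaries, was at 21.9, 19.2, 22.8 and 29.2 RPKM in KO-Sal 9 to 12 and 9.26, 12.9, 10.7 and 9.40 RPKM in KO-Bleo 13 to 16 (-1.06 ± 0.13 (SE), adjusted p = 0.00044). Tek, the angiopoietin receptor TIE2, was at 85.8, 73.5, 86.9 and 100.5 RPKM in KO-Sal 9 to 12 and 44.2, 56.5, 54.4 and 48.3 RPKM in KO-Bleo 13 to 16 (-0.76 ± 0.10 (SE), adjusted p = 0.00076), and Tmem100, a target of BMP signalling in endothelium, at 288, 269, 323 and 286 RPKM in KO-Sal 9 to 12 and 160.2, 204, 192 and 152 RPKM in KO-Bleo 13 to 16 (-0.72 ± 0.10 (SE), adjusted p = 0.00085). KO-Sal 12 or KO-Sal 11 was highest and the treated libraries did not reach the saline range. Pecam1, the pan-endothelial CD31, was not called (-0.14 ± 0.07 (SE), adjusted p = 0.18). Selp, P-selectin, on which leukocytes roll in inflamed venules, rose from 1.19 ± 0.147 RPKM in KO-Sal to 3.20 ± 0.435 RPKM in KO-Bleo (mean ± SD, n = 4) (0.94 ± 0.10 (SE), adjusted p = 0.00023). Esm1 also belongs here, as does Car4.

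Genes of resident fibroblasts and pericytes mostly fell or did not pass. Of this list, 3 of 27 listed genes rose, 9 fell and 15 did not pass (median -0.08). Inmt, an amine methyltransferase of alveolar fibroblasts in mouse lung, was at 988, 765, 1145 and 1003 RPKM in KO-Sal 9 to 12 and 256, 425, 327 and 277 RPKM in KO-Bleo 13 to 16 (-1.61 ± 0.17 (SE), adjusted p = 0.00015). Pdgfra, the receptor of alveolar fibroblasts, was at 40.4, 41.6, 42.7 and 52.3 RPKM in KO-Sal 9 to 12 and 22.9, 28.5, 25.2 and 24.9 RPKM in KO-Bleo 13 to 16 (-0.78 ± 0.09 (SE), adjusted p = 0.00033). Limch1 (-0.66 ± 0.08), Lrat, which stores vitamin A (-1.41 ± 0.22), and Fgf10 (-0.59 ± 0.12), a fibroblast signal to the epithelium, fell as well. Cd34 rose (1.002 ± 0.09 (SE), adjusted p = 8.2e-05), and Pdgfrb, the pericyte receptor, did not pass (0.22 ± 0.17 (SE), adjusted p = 0.40). Of the mesothelium list, the cells that cover the lung surface, 0 of 8 listed genes rose, 6 fell and 2 did not pass (median -0.69). Upk3b was at 29.2, 48.6, 26.5 and 37.2 RPKM in KO-Sal 9 to 12 and 15.1, 24.6, 18.3 and 20.4 RPKM in KO-Bleo 13 to 16 (-0.80 ± 0.19 (SE), adjusted p = 0.012) and Lrrn4 at 9.15, 13.5, 7.67 and 11.2 RPKM in KO-Sal 9 to 12 and 3.86, 5.83, 4.19 and 5.97 RPKM in KO-Bleo 13 to 16 (-0.92 ± 0.17 (SE), adjusted p = 0.004). Gpm6a fell too (-0.72 ± 0.13 (SE), adjusted p = 0.0029). The mean level of the 8 mesothelial genes was highest in KO-Sal 10, at 4.54 against 4.03 to 4.19 in the other saline libraries, and was 3.57 to 3.88 in KO-Bleo.

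**Figure D4:**
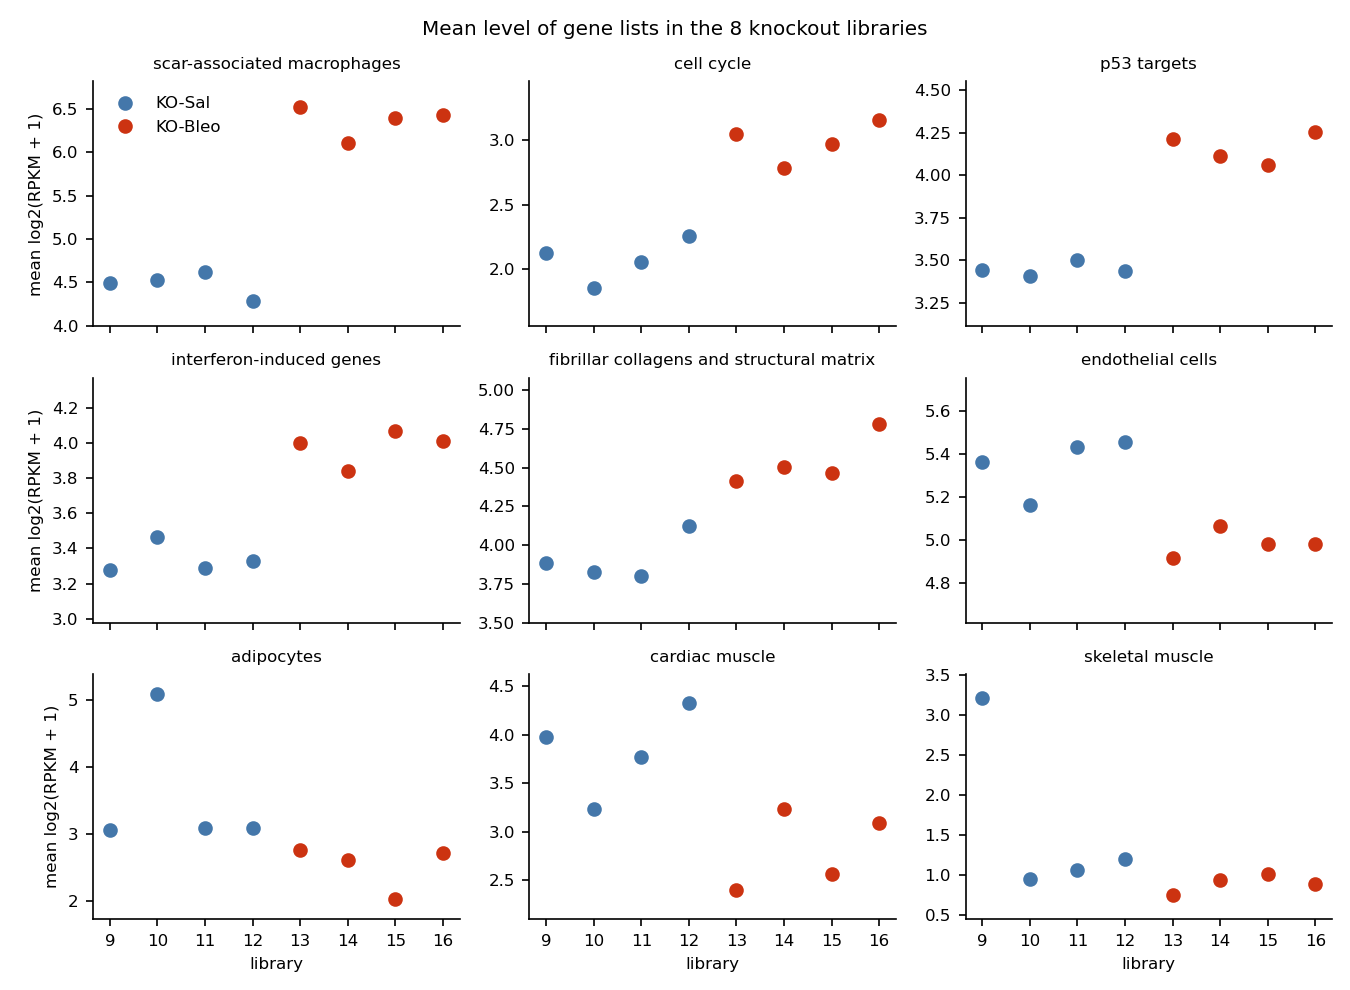
Mean of log2(RPKM + 1) over the members of 9 gene lists in each of the 8 knockout libraries, numbered on the horizontal axis, KO-Sal in blue and KO-Bleo in red, with an axis of its own for each panel. Macrophage, cell cycle, p53, interferon and matrix levels are higher in all 4 treated libraries and the endothelial level lower, while the adipocyte level stands out in KO-Sal 10 (5.09) and the skeletal muscle level in KO-Sal 9 (3.22).

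In the TGF-beta and BMP pathways, which drive and restrain fibrosis respectively in many models, 15 of 44 listed genes rose, 11 fell and 18 did not pass. The ligand Tgfb1 was at 23.03, 21.2, 26.6 and 23.2 RPKM in KO-Sal 9 to 12 and 27.3, 25.2, 26.4 and 26.97 RPKM in KO-Bleo 13 to 16 and did not pass (0.17 ± 0.07 (SE), adjusted p = 0.12), although it did without KO-Sal 11 (0.23, adjusted p = 0.033). Tgfb2 rose (0.46 ± 0.09 (SE), adjusted p = 0.0054). Tgfbi, a matrix protein named for its induction by TGF-beta, rose (0.80 ± 0.07 (SE), adjusted p = 7.7e-05). Fstl1, a secreted antagonist of BMPs, rose (0.99 ± 0.12 (SE), adjusted p = 0.00035). The BMP ligands Bmp6, at 46.2, 39.9, 53.6 and 50.8 RPKM in KO-Sal 9 to 12 and 18.3, 26.7, 20.8 and 21.8 RPKM in KO-Bleo 13 to 16 (-1.09 ± 0.12 (SE), adjusted p = 0.0002), and Bmp3 (-0.94 ± 0.10 (SE), adjusted p = 0.0002) fell. Gdf15, a distant member of the same ligand family, is given with the p53 targets.

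Of the WNT list, 6 of 40 listed genes rose, 11 fell and 23 did not pass (median -0.08), and 7 fell without KO-Sal 9. Sfrp1, a secreted WNT antagonist made by fibroblasts, was at 7.19, 6.66, 6.62 and 6.19 RPKM in KO-Sal 9 to 12 and 23.9, 24.7, 25.2 and 30.6 RPKM in KO-Bleo 13 to 16 and was the largest increase (1.82 ± 0.08 (SE), adjusted p = 2.4e-06). Wisp1 (1.21 ± 0.12) and the epithelial ligand Wnt7b (0.75 ± 0.11) rose. The mesenchymal ligands Wnt2 (-0.51 ± 0.13 (SE), adjusted p = 0.015) and Wnt2b (-1.01 ± 0.15 (SE), adjusted p = 0.001) and the enhancer Rspo1 (-0.80 ± 0.12 (SE), adjusted p = 0.0011) fell.

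Some signals of the IL-6 family, to which IL-31 belongs, rose. Of this list, 6 of 19 listed genes rose, 3 fell and 10 did not pass, with 1 in place of 3 falling without KO-Sal 12. Lif, leukaemia inhibitory factor, was at 2.51, 1.15, 1.65 and 0.811 RPKM in KO-Sal 9 to 12 and 4.18, 4.52, 9.52 and 5.10 RPKM in KO-Bleo 13 to 16 (1.42 ± 0.25 (SE), adjusted p = 0.003). Socs3, the inhibitor that the family induces through STAT3, was at 17.8, 17.4, 15.7 and 12.7 RPKM in KO-Sal 9 to 12 and 33.97, 23.5, 28.5 and 37.5 RPKM in KO-Bleo 13 to 16 (0.91 ± 0.14 (SE), adjusted p = 0.0017). Il6 (0.61 ± 0.10 (SE), adjusted p = 0.0019) and Il11 (0.41 ± 0.09 (SE), adjusted p = 0.0077) were low, with every KO-Bleo library above every KO-Sal library, and lost their calls when the spread was estimated over all 16 libraries (adjusted p = 0.095 and 0.17). The shared chain Il6st, at 98.4, 93.2, 96.5 and 95.5 RPKM in KO-Sal 9 to 12 and 80.3, 91.8, 96.7 and 89.8 RPKM in KO-Bleo 13 to 16, was not called (-0.10 ± 0.06 (SE), adjusted p = 0.30), and Cntfr fell (-0.76 ± 0.15 (SE), adjusted p = 0.0048).

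Of the genes that inactivate bleomycin or oxidants, 11 of 25 listed genes rose, 6 fell and 8 did not pass (median 0.26). Blmh, the hydrolase that inactivates bleomycin, was at 16.9, 18.1, 17.3 and 21.2 RPKM in KO-Sal 9 to 12 and 22.8, 22.7, 23.04 and 22.4 RPKM in KO-Bleo 13 to 16 (0.30 ± 0.07 (SE), adjusted p = 0.015), a small rise whose call was lost without KO-Sal 9 (0.26, adjusted p = 0.052). Mt2, a metallothionein, was at 17.2, 26.4, 25.7 and 20.9 RPKM in KO-Sal 9 to 12 and 131, 68.4, 68.4 and 129 RPKM in KO-Bleo 13 to 16 (2.04 ± 0.24 (SE), adjusted p = 0.00041), and Hmox1, heme oxygenase, rose from 17.8 ± 1.04 RPKM in KO-Sal to 33.2 ± 4.77 RPKM in KO-Bleo (mean ± SD, n = 4) (0.86 ± 0.10 (SE), adjusted p = 0.00024). Aox3, an aldehyde oxidase, was at 65.5, 70.3, 63.8 and 63.1 RPKM in KO-Sal 9 to 12 and 33.4, 32.5, 28.97 and 30.5 RPKM in KO-Bleo 13 to 16 and fell (-1.04 ± 0.06 (SE), adjusted p = 6.9e-06). Gstm1 (-0.83 ± 0.09), which conjugates glutathione and has close copies, and Cat, catalase (-0.52 ± 0.07), fell as well.

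Of the clock genes, 1 of 18 listed genes rose, 1 fell and 16 did not pass, and the 1 that rose was lost without KO-Sal 9 or any KO-Bleo library. Arntl, which encodes BMAL1, was at 6.28, 9.42, 7.08 and 15.9 RPKM in KO-Sal 9 to 12 and 3.87, 3.91, 3.34 and 3.18 RPKM in KO-Bleo 13 to 16 (-1.14 ± 0.22 (SE), adjusted p = 0.0051), with KO-Sal 12 above the other saline libraries. Of the immediate early genes, which respond within minutes to stress and handling, 2 of 21 listed genes rose, 3 fell and 16 did not pass. Egr2 rose (0.90 ± 0.14 (SE), adjusted p = 0.0014), and Jun fell (-0.53 ± 0.14 (SE), adjusted p = 0.019), with the call lost without KO-Sal 12 (-0.49, adjusted p = 0.052) or KO-Bleo 13 (-0.46, 0.057). The numbers that fell in this list were 5 without KO-Sal 10 and 1 without KO-Sal 12 or KO-Bleo 13, and 1 rose without KO-Sal 9, 10 or 12 or KO-Bleo 15 or 16. Leaving out KO-Sal 10 and KO-Bleo 15 together left 6 called lower and 1 called higher. Of the lipid synthesis genes, 5 of 25 listed genes rose, 2 fell and 18 did not pass, with 3 rising without KO-Sal 11 or KO-Bleo 13 and 4 falling without KO-Sal 10. Srebf2, the regulator of cholesterol synthesis, fell (-0.34 ± 0.06 (SE), adjusted p = 0.0034).

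Genes of tissues around the lung stood at unequal levels in the libraries. Of the cardiac muscle list, 0 of 14 listed genes rose, 11 fell and 3 did not pass (median -1.003), and the mean level of KO-Sal libraries was 3.24 to 4.32 against 2.40 to 3.23 for KO-Bleo. Mouse lung veins carry heart muscle in their walls. Myl4, an atrial light chain, was at 51.4, 30.5, 50.9 and 64.1 RPKM in KO-Sal 9 to 12 and 15.1, 27.4, 15.6 and 23.5 RPKM in KO-Bleo 13 to 16 (-1.23 ± 0.24 (SE), adjusted p = 0.0062), and Tnni3, cardiac troponin I, at 31.6, 17.3, 33.4 and 37.3 RPKM in KO-Sal 9 to 12 and 8.98, 14.997, 5.33 and 12.8 RPKM in KO-Bleo 13 to 16 (-1.45 ± 0.32 (SE), adjusted p = 0.011). The number that fell was 5 without KO-Sal 9, 6 without KO-Bleo 13 or 15 and 7 without KO-Sal 12. Of the adipocyte list, 1 of 19 listed genes rose, 2 fell and 16 did not pass. Without KO-Sal 10, 8 fell, while 1 fell without KO-Sal 9 or 11 or KO-Bleo 14, 15 or 16 and none without KO-Bleo 13. Adipoq, adiponectin, was at 8.42, 81.4, 9.40 and 11.9 RPKM in KO-Sal 9 to 12 and 5.79, 6.50, 5.92 and 6.70 RPKM in KO-Bleo 13 to 16 (-1.31 ± 0.63 (SE), adjusted p = 0.17), and without KO-Sal 10 it fell (-0.58, adjusted p = 0.0073). Lpl, lipoprotein lipase, which macrophages also make, rose (0.62 ± 0.09 (SE), adjusted p = 0.0012). Of the skeletal muscle list, 0 of 7 listed genes rose, 1 fell and 6 did not pass. The 1 that fell is Ckm, muscle creatine kinase, which was at 9.56, 1.74, 3.001 and 4.31 RPKM in KO-Sal 9 to 12 and 0.486, 1.70, 0 and 1.04 RPKM in KO-Bleo 13 to 16 (-1.56 ± 0.42 (SE), adjusted p = 0.024), with the call lost without KO-Sal 12 (-1.53, adjusted p = 0.062), KO-Bleo 13 (-1.50, 0.070) or KO-Bleo 15 (-1.31, 0.061), with a pseudocount of 0.1 (-2.75, 0.060) and with limma-voom (-2.11, 0.081). Of the erythroid list, 0 of 5 listed genes rose, 2 fell and 3 did not pass, with 1 without KO-Sal 9, 11 or 12, and Alas2, the first enzyme of heme synthesis in red cells, was at 37.2, 35.6, 30.8 and 62.8 RPKM in KO-Sal 9 to 12 and 17.2, 19.5, 6.30 and 17.7 RPKM in KO-Bleo 13 to 16 (-1.45 ± 0.35 (SE), adjusted p = 0.019). The part of these tissues in the changes of other genes was not tested.

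Set beside wildtype lungs, where 5066 genes passed (30.9%), 2714 genes were called in the same direction in both genotypes, which is 70.2% of the knockout calls and 53.6% of the wildtype calls, and 6 in opposite directions. One wildtype library, WT-Bleo 6, held 604134 reads, fewer than KO-Bleo 15, and 2089 genes were listed at 0 in it. Without it 6442 genes passed in wildtype lungs and 3066 were called in the same direction in both genotypes, an analysis chosen after seeing the data. A gene called in a single genotype is not shown to differ between them. The test of the difference itself called 36 genes (0.220%), 23 with a more positive change in knockout lungs and 13 with a more negative one, and 1805 had an unadjusted p under 0.05. This count was fragile. It ran from 3 to 60 when 1 of the 16 libraries was left out, and leaving out any of 12 libraries (KO-Sal 9, 11 or 12, KO-Bleo 13, 14 or 15, WT-Sal 1, 2, 3 or 4, WT-Bleo 5 or 8) moved it by more than 1.5 times, to 60 without KO-Sal 12 and to between 3 and 20 without any of the other 11. It was 37 without WT-Bleo 6 and 30 without KO-Sal 10, KO-Bleo 15 and WT-Bleo 6 together.

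The list for type 2 alveolar cells held 7 of these 36. In wildtype lungs 13 of their 18 listed genes were called lower and 1 higher (median -0.39), against 5 lower and 5 higher in knockout lungs (median -0.03). Lamp3, a protein of the lamellar bodies in which surfactant is stored, changed by 0.09 ± 0.09 (SE) in knockout and -0.84 ± 0.08 in wildtype lungs, a difference of 0.93 ± 0.12 (limma, adjusted p = 0.012). Its knockout level was 268, 301, 221 and 263 RPKM in KO-Sal 9 to 12 and 287, 278, 291 and 258 RPKM in KO-Bleo 13 to 16. Chil1 rose in knockout lungs (0.54) and fell in wildtype lungs (-0.31), a difference of 0.86 ± 0.12 (adjusted p = 0.012). Dram1, a lysosomal p53 target outside this list, fell in wildtype lungs (-0.64) and did not pass in knockout lungs (-0.145), a difference of 0.50 ± 0.07 (adjusted p = 0.013). Lamp3, Chil1 and Dram1 kept the call under all 21 alternatives. Sftpa1 (difference 0.73), Hc (0.98) and Sftpc (0.60) were called too, as were Slc34a2 (0.62) and S100g (0.81), which are named after their values were seen. Over the 16 fits that left out 1 library, S100g kept its call in 2, Sftpc in 3, Slc34a2 in 7, Hc in 8 and Sftpa1 in 10.

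Among the other genes with the smallest p, the change in knockout lungs was smaller than in wildtype lungs for Chl1, an adhesion molecule (1.70 against 2.81, difference -1.11 ± 0.17, adjusted p = 0.024), Rgs5, a pericyte gene (0.52 against 2.004, difference -1.49 ± 0.25, adjusted p = 0.033), and Susd2 (0.14 against 0.98, difference -0.84 ± 0.13, adjusted p = 0.024). Mme, the peptidase neprilysin, fell less in knockout lungs (-0.53 against -1.46, difference 0.94 ± 0.15, adjusted p = 0.028), and Itih4 (-0.19 against -1.03) and Snx25 (0.06 against -0.33) fell in wildtype lungs and did not pass in knockout lungs, with differences of 0.84 and 0.40 (adjusted p = 0.028 and 0.033). Over the 16 fits that left out 1 library, Snx25 kept its call in 6, Rgs5 in 7, Mme in 8, Itih4 in 9, Susd2 in 10 and Chl1 in 11.

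**Figure D5:**
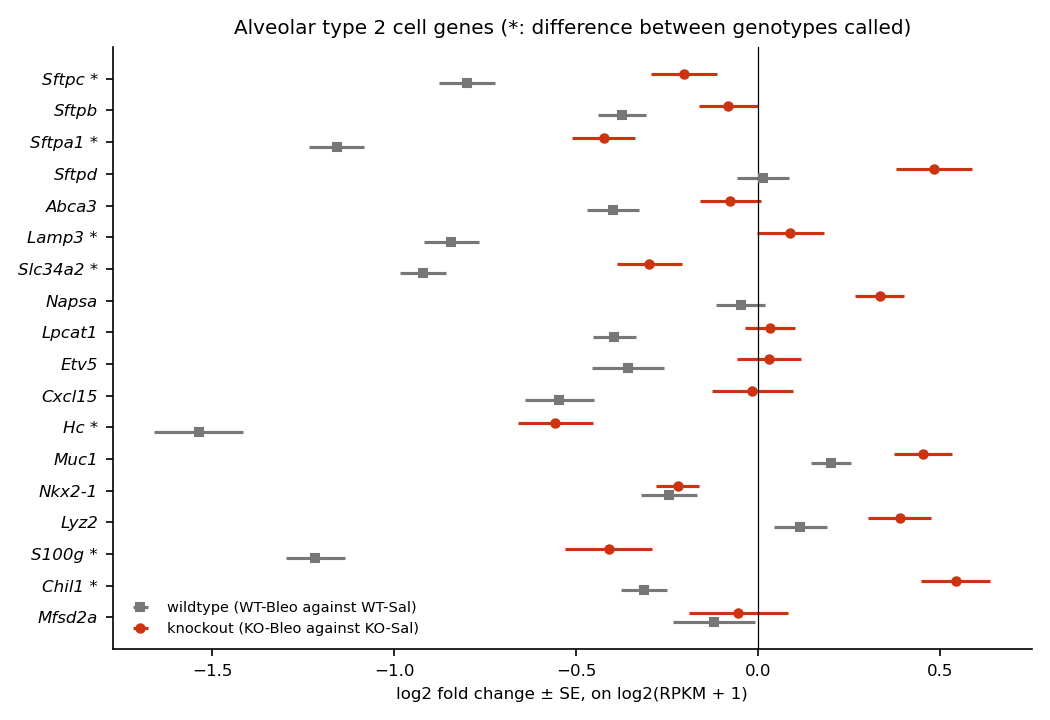
Log2 fold change with bleomycin of the 18 listed alveolar type 2 cell genes in knockout lungs (red circles) and wildtype lungs (grey squares), with bars of 1 standard error and an asterisk where the difference between genotypes passed the test. The knockout estimate lies to the right of the wildtype estimate for all 18 genes, and the difference was called for 7. For some it is within its standard error, as for Nkx2-1 (0.024 ± 0.095) and Mfsd2a (0.067 ± 0.18). The genes were listed for 1 cell type and measured in the same libraries, so they are not 18 separate observations. The part of other lung cells in their levels was not tested.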

How the data were processed

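Total RNA of whole lung was sequenced on an Illumina HiSeq-1000, and the mm10 build, TopHat, bcl2fastq, CASAVA 1.8 and DESeq are listed in the submitters' processing notes. The deposited table holds 1 value per gene and library, taken here as RPKM made by the authors. The unit was inferred from the values. Those of 16366 of 16380 genes (99.9%) were whole multiples of 1 read, scaled by a factor per gene and per library (tolerance 6e-08). The factor per gene was not compared with transcript length, so this shows scaled reads and does not establish RPKM. The recovered read totals could each be off by a whole factor. Whether strand was used in counting is not stated. Gene IDs matched the GRCm38.p6 annotation for 16363 genes, and 24 symbols stored as dates were replaced.

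Values were analysed as log2(RPKM + 1) with limma 3.58.1 (trend and robust) in R 4.3.3 on the 8 knockout libraries, without a filter, with Benjamini-Hochberg adjustment over 16380 genes. The difference between genotypes was fitted on all 16 libraries. The fit was also run on simulated reads with the same dispersion for every gene and no library holding other tissue. That run cannot show how such libraries act on the calls, and no result here rests on it. Alternatives were pseudocounts of 0.1 and 5, a mean of at least 1 RPKM, median-of-ratios scaling, library quality weights, limma-voom on recovered reads, a spread shared by all groups, and leaving out libraries singly or KO-Sal 10 and KO-Bleo 15 together (16 alternative fits), and the study's thresholds. Leaving out WT-Bleo 6 in wildtype lungs was added after seeing the data.

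The 40 gene lists, the members and the tests were chosen with earlier results of these data known, and lists are described by counts and medians without a set test. Genes named are Il31ra and Osmr, the 12 largest changes each way among called genes whose groups do not overlap and whose mean log2 level is at least 1, the first 3 and up to 6 smallest p of each list, the largest called change against each list's median, and the 10 smallest p of the difference between genotypes. Not all genes this rule allows are named, and exceptions are stated. Promoters are 250 bases before the start from RefSeq. Protein identity of Chil3 and Chil4 was not analysed here, and some genes are not reported here.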

Additional observations from a re-analysis of the deposited data

Results flagged for a closer look

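Among 416 sets of 4 values (208 named genes in KO-Sal and in KO-Bleo), 22 held a library far from the other 3, and chance gives about 1 in 20 groups. KO-Sal 10 was high for Adipoq (81.4 RPKM against 8.42 to 11.9), Thrsp (141 against 15.9 to 19.7), Cox8b (21.7 against 3.56 to 6.21), Pparg (11.99 against 6.43 to 7.36) and Sftpa1 (1753 against 1427 to 1470), and low for Cald1 (71.2 against 77.1 to 78.1). KO-Sal 12 was high for Chil4 (0.583 RPKM against 0.128 to 0.194), Col4a1 (118 against 90.9 to 93.4), Cyp1a1 (18.4 against 6.00 to 7.83), Fabp1 (14.2 against 10.3 to 10.9) and Fstl1 (47.2 against 34.7 to 36.7), and low for Cfb (11.5 against 18.4 to 19.5) and Gpnmb (5.44 against 6.71 to 6.88). KO-Sal 11 was high for Bex2 (26.0 RPKM against 20.4 to 21.3) and low for Bpifa1 (256 against 327 to 339), and KO-Sal 9 was low for Ccl17 (8.11 against 9.36 to 9.51) and Zbp1 (3.88 against 4.67 to 4.78). In KO-Bleo, replicate 15 was at 0 RPKM for Cox8b (others 1.89 to 2.15) and Cst8 (others 0.978 to 1.14) and high for Mmp12 (68.8 against 37.0 to 38.2), replicate 16 was high for C3 (290.0 against 215 to 225) and replicate 14 for Sftpa1 (1253 against 1085 to 1101).

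The change with bleomycin differed between knockout and wildtype lungs for 13 named genes (limma, adjusted p under 0.05). It was more positive in knockout lungs for Hc (0.98 on the log2 scale), Mme (0.94), Lamp3 (0.93), Chil1 (0.86), Itih4 (0.84), Sftpa1 (0.73), Sftpc (0.60), Dram1 (0.50) and Snx25 (0.40), and more negative for Rgs5 (-1.49), Chl1 (-1.11), Susd2 (-0.84) and Sfrp1 (-0.83). Sfrp1 kept its call in 4 of the 16 fits that left out 1 library, and the numbers for the others are given above.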

How the results depend on the processing

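Of 208 named genes, 171 were called and 156 of these kept the call under the 16 alternative fits, while 143 of the 171 also met the study's thresholds (a change of 1.5-fold at an unadjusted p under 0.05). Over 3528 values under the fits and these thresholds, 82 lost and 39 gained a call, and 3 changed sign, none of them called: Acta2 (-0.019 in place of 0.23, up to 0.422 without KO-Bleo 13) and Sftpb (0.0048 in place of -0.08, down to -0.12 without KO-Bleo 13) without KO-Sal 10 and KO-Bleo 15, and Pparg (0.073 in place of -0.11, down to -0.232 without KO-Bleo 15) without KO-Sal 10. Of the 3864 genes called, 2179 (56.4%) were called in the same direction under all 16 fits, and 1151 met the study's thresholds. In the counts of calls kept under all 16 fits, a gene that a fit left out counts as not called in it. Genes with a mean under 1 RPKM or without recovered whole reads were left out in this way. By those thresholds 1220 genes were called, 791 higher and 429 lower. Several list counts were lower by them, with 5 in place of 13 higher for collagen processing, 1 in place of 6 lower for alveolar type 1 cells, 9 in place of 15 higher for TGF-beta and BMP signalling, 4 in place of 11 lower for WNT signalling and 5 in place of 9 lower for fibroblasts and pericytes, while 7 in place of 2 adipocyte genes were lower. Of the p53 targets, 16 of 33 in place of 22 were higher, and of the structural matrix genes 17 of 37 in place of 23. Leaving out 1 library gave 2698 to 4073 genes, 1646 to 2277 higher and 1052 to 1796 lower, and leaving out KO-Sal 10 and KO-Bleo 15 together gave 1941 lower. For the difference between genotypes, leaving out 1 library gave 3 to 60 genes, 3 to 30 more positive and 0 to 30 more negative, and limma-voom gave 81, 51 more positive and 30 more negative, in place of 36, 23 and 13. No paired analysis was possible because the replicate numbers run on from group to group and are not shared. Depth limits KO-Bleo 15 (1234594 reads), where 1208 genes were listed at 0, and WT-Bleo 6 (604134 reads), where 2089 were.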

Other observations

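Gene families were gathered by symbol after values of the table had been seen, so their counts are descriptions only. Lists described above also hold 4 of the cathepsins, 4 of the TNF receptors, 4 of the glutathione S-transferases, and 1 each of the proton pump subunits, Fc-gamma receptors and carboxylesterases. Of 39 listed subunits of the proteasome, which degrades ubiquitin-tagged proteins, 26 rose and none fell, with a median log2 change of 0.25, Psmd8 (0.61) among them. Of 14 cathepsins, the proteases of lysosomes, 9 rose and none fell (median 0.78). Ctsb rose by 1.41 and Ctsz by 1.01. Of 22 subunits of the proton pump that acidifies lysosomes, 14 rose and 2 fell (median 0.35), and of 5 Fc-gamma receptors, which bind antibody-coated particles, 4 rose (median 1.08), Fcgr3 by 1.497. These shares compare with 13.2% of all genes called higher and 10.4% called lower.

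Of 73 cytosolic ribosomal proteins 1 rose and none fell (median 0.01), and of 35 subunits of respiratory complex I 4 rose and none fell (median 0.14). Of 12 serpin B protease inhibitors 8 rose and none fell (median 0.41), Serpinb9b by 1.47, and of 19 receptors of the TNF family 9 rose and none fell (median 0.41). Of 19 glutathione S-transferases, which detoxify electrophiles, 1 rose and 5 fell (median -0.23). Of 9 carboxylesterases, which hydrolyse ester drugs and lipids, 5 fell while Ces2e rose by 1.37. Of 19 Hox genes 4 fell and none rose, and all of these, Hoxb3 (-0.44), Hoxb4 (-0.61), Hoxb5 (-0.60) and Hoxb6 (-0.55), belong to the B cluster. Near-identical members of these families may share reads.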
